A study of Mus musculus with 12 samples.

Results

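The genes App, Aplp1 and Aplp2 make up the amyloid precursor protein family of the mouse, and their transcripts were taken from the gene models deposited for an RNA-seq study of cocaine by gene name. Of 87740 transcripts at 35406 loci, 11 belonged to the family, with 5 for App, 1 for Aplp1 and 5 for Aplp2. RNA of the nucleus accumbens (NAc), a region of the ventral striatum that takes part in reward, had been sequenced from 12 pools of 3 to 5 male C57BL/6 mice aged 8 to 10 weeks. The 4 groups of 3 pools each were repeated cocaine (20 mg/kg on 7 days), its control given saline on 7 days, acute cocaine (saline on 6 days, then 20 mg/kg of cocaine on 1 day) and its own control given saline on 7 days. All animals were taken 24 h after the last injection, the labels name no transgene, and each pool mixed several animals. The models hold exon positions on mm9 (NCBIM37) and no count or level of any pool. They do not say which of the 12 pools were used to make them. The depth behind each pool could not be read from the models, and the tissue could not be checked against its markers. Levels of the 3 genes under cocaine and saline were not analysed here. The comparisons below are between transcripts, exons and genes, and each is a complete count over the models, so that none carries a replicate error or a p-value.

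App, Aplp1 and Aplp2 encode membrane proteins that cross the membrane a single time, with a large outer part and a short inner tail. App is cut outside the membrane by an alpha-secretase or by the beta-secretase Bace1, and the stump is then cut within the membrane by the gamma-secretase complex. Cutting by Bace1 and gamma-secretase releases amyloid beta, the peptide that accumulates in Alzheimer's disease, which is encoded by exons 16 and 17 of App and has no counterpart in Aplp1 or Aplp2. App and Aplp2 can also hold a Kunitz domain, a small fold held together by 6 cysteines that inhibits serine proteases such as trypsin. Neurons are known to make mainly App without this domain, and other cells more of the App that has it.

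The Kunitz domain of App was encoded by exon 7 of its longest model, at chr16:85043821-85043988 (mm9, minus strand), and that of Aplp2 by exon 7 of its longest model, at chr9:30975146-30975313 (mm9, minus strand). Both exons were coding and 168 bases long, and both began after the first base of a codon, so that 2 bases finish a codon, 55 whole codons follow and 1 base remains. They are shown because the presence or absence of this exon separates the main protein forms of both genes. Capitals mark the codons for cysteine in the reading frame.
App Kunitz exon: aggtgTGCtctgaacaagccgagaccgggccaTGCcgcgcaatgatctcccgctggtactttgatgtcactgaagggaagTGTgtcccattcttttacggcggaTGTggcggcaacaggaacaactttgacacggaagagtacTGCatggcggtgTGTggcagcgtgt
Aplp2 Kunitz exon: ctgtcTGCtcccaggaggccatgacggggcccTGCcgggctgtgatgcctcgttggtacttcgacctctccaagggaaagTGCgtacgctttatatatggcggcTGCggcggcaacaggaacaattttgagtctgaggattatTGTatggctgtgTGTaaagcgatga
Each exon held 6 cysteine codons, and all 6 lay at the same places in both, as whole codons 2, 11, 27, 35, 48 and 52. Of the 168 bases, 114 (67.9%) were identical, and of the 55 encoded residues 38 (69.1%) were. Of the 38 codons that differed, 21 encoded the same residue in both genes. The codon after the second cysteine, which gives the residue that enters the pocket of the protease, encoded arginine in both. Over the longest proteins, 404 of 712 aligned residues (56.7%) were identical between App and Aplp2.

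The other optional exons of the family are shorter, and they are shown with the neighbouring intron whose hexamer is described below. Exon 8 of App lay at chr16:85040496-85040552, exon 15 of App at chr16:84971653-84971706, and exon 14 of Aplp2 at chr9:30963775-30963810, all coding and on the minus strand of mm9. Exon 8 of App follows the Kunitz exon directly. Exon 15 of App lies in the stretch before the amyloid beta region, and its absence is known to create an attachment site for chondroitin sulfate. The intron after exon 8 is given by its first 100 bases, chr16:85040396-85040495, with the hexamer TGCATG in capitals.
App exon 8: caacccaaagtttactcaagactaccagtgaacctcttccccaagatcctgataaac
App exon 15: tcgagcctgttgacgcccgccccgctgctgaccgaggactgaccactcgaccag
Aplp2 exon 14: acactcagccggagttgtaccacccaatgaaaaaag
App intron after exon 8: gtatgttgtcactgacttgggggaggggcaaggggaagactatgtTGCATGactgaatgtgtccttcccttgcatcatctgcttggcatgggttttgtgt

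App occupied 219.3 kb of chromosome 16 (84954685 to 85173952, minus strand), and its 5 models all had a protein identifier and lay in 1 group of transcripts that share a transcription start site (TSS group). App-202 was the longest, with 18 exons, 3345 spliced bases and a coding sequence of 770 residues in GENCODE M1, the reference annotation of the same build. It held every numbered exon, Kunitz exon and exon 8 included. App-201 had 16 exons and 695 residues and left out exons 7 and 8 together, so that a single intron of 25958 bases joined exon 6 to exon 9. These are the forms usually called by their lengths in residues, and they differed by 225 bases, or 75 residues.

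The remaining 3 App models each departed from App-202 in another way. App-205 had 17 exons and 752 residues and left out only exon 15, which has 54 bases. App-204 had 14 exons and 582 residues and left out exons 14 to 17, so that its last intron spanned 58194 bases. The 524 bases of those exons are not a multiple of 3, with a remainder of 2, so that the last exon was read in another frame. App-204 thus held the Kunitz exon but neither of the exons for amyloid beta.

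App-203 had 18 exons and 735 residues and cut through the Kunitz region in a way of its own. Its Kunitz exon was 164 bases, ending 4 bases early, it had no exon 8, it held a 6-base exon at chr16:85032120-85032125, and its exon 9 was 84 bases, starting 50 bases late. The translated model still held all 6 cysteines in the Kunitz spacing. The junctions are shown because a few bases set this model apart from the others. Capitals mark bases in the model, at chr16:85043809-85043844, chr16:85032105-85032140 and chr16:85030546-85030575 in turn (mm9, minus strand).
App shortened Kunitz exon, donor end: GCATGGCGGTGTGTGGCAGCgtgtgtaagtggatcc
App 6-base exon: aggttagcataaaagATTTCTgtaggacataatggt
App shortened exon 9, acceptor end: gacaagtacctggagACACCCGGGGACGAG

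By the exact exon, 3 of the 5 App models (60%) held the Kunitz exon, and counting any overlap 4 of 5 (80%) did, the difference being App-203. No App model held the whole Kunitz exon without exon 8, and none held exon 8 without the Kunitz exon. The 3 models with the whole Kunitz exon were App-202, App-204 and App-205, and App-201 was the only model with no base of either exon. All family models carry Ensembl identifiers, and the paper aligned its reads to an Ensembl gene database. These are counts of models and do not show whether, or how much of, each was present in the NAc.

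**Figure D1:**
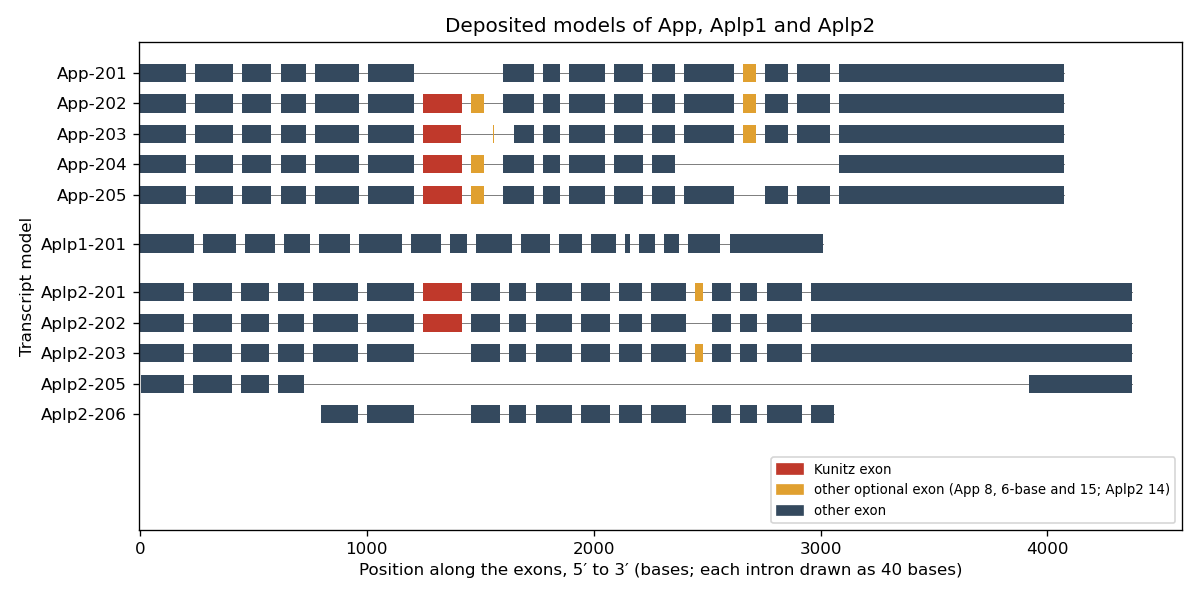
Exons of the 11 models drawn 5′ to 3′ to the scale of bases, with each intron drawn as 40 bases and each row a model; red marks the Kunitz exon, amber the other optional exons (App exons 8 and 15 and the 6-base exon, Aplp2 exon 14) and dark blue all other exons. App-201 has no exon 7 or 8, App-204 lacks exons 14 to 17, Aplp2-205 has 5 exons, and Aplp2-206 starts inside exon 5.

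Aplp2 occupied 62.3 kb of chromosome 9 (30957142 to 31019400, minus strand), and its optional exons were combined differently. Aplp2-201, with 18 exons and 763 residues, held both the Kunitz exon and the 36-base exon 14. Aplp2-202, with 751 residues, held the Kunitz exon and left out exon 14. Aplp2-203, with 707 residues, left out the Kunitz exon and held exon 14. None of these models left out both. In Aplp2 the Kunitz exon stood alone, with no counterpart of App exon 8 after it, and its absence joined exon 6 to exon 8 over 4034 bases.

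Both other Aplp2 models held fewer exons, and Aplp2-206 also began and ended within the span of the others. Aplp2-205 had 5 exons and 182 residues, and joined exon 4 to a point inside the last exon over an intron of 21920 bases whose end read CA rather than AG. It was the only intron of the family that did not run from GT to AG. Aplp2-206 had 12 exons and held neither the Kunitz exon nor exon 14. The Kunitz exon was thus in 2 of 5 Aplp2 models (40%). Among the 3 models of 17 or 18 exons it was in Aplp2-201 and Aplp2-202.

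Aplp2-206 formed a TSS group by itself, 41216 bases downstream of the start of the other 4 models, within exon 5 (chr9:30978022-30978218, mm9, minus strand). The exon is shown because the model starts 34 bases inside it, with the bases held by the model in capitals.
Aplp2 exon 5: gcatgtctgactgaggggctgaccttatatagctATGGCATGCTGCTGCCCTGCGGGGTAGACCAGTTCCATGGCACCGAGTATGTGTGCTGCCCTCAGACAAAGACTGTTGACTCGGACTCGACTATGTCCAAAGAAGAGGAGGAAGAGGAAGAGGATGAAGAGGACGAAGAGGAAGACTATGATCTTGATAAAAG
The first 3 bases of the model were ATG, and this ATG was not in the reading frame that Aplp2-201 uses in exon 5. In GENCODE M1 the same identifier had 13 exons, because a gap of 2 bases, starting at base 50 of exon 5, divided its first exon, and the coding sequence of 511 residues was read across that gap. The deposited model bridged the gap. Read from its ATG along the deposited exons, it met a stop after 8 codons. The other 10 family models had the same exons in both annotations.

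Aplp1 occupied 10.6 kb of chromosome 7 (31220001 to 31230580, minus strand) with a single model of 17 exons and 654 residues. Aplp1 is found mainly in neurons. It had no Kunitz exon, and its exon 6 was joined to exon 7 by an intron of 397 bases, against 25958 bases between exons 6 and 9 in App and 4034 bases between exons 6 and 8 in Aplp2. GENCODE M1 listed 2 Aplp1 transcripts and 6 of Aplp2, of which 1 and 5 were among the deposited models.

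The part of the protein that crosses the membrane was looked for by hydropathy. The most hydrophobic stretch of 19 residues, by the mean Kyte-Doolittle index, scored 2.82 in App-201, App-202, App-203 and App-205, 2.32 in Aplp1 and 3.16 in all Aplp2 models except Aplp2-205. The value of Aplp2-206 comes from its coding sequence in GENCODE, which its deposited exons do not keep open. It lay in exon 17 of App and Aplp2 and in exon 16 of Aplp1. In App-204 the highest stretch scored 1.51, below the usual mark of 1.6 for a membrane segment, and in Aplp2-205 it scored 1.88, and both lay across exons 3 and 4. Exon 16 (chr16:84965915-84966015) and exon 17 (chr16:84962967-84963113) of App are shown since App-204 lacks them, with the codons of the hydrophobic stretch in capitals.
App exon 16: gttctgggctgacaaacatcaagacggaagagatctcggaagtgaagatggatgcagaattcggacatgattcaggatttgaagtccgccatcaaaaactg
App exon 17: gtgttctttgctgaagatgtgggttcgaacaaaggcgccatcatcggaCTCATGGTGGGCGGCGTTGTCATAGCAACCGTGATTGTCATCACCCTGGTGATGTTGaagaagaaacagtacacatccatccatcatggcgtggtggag

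The 3 genes kept a common exon plan. Of the 17 introns of App, 14 fell at the place of an Aplp2 intron in the aligned proteins, and 11 at the place of an Aplp1 intron, within 5 residues and in the same phase of the codon. Exons of 113, 75, 159, 129 and 100 bases had the same length in all 3 genes, and they were exons 4 and 10 to 13 of App. The identity of the aligned residues was 44.9% between App and Aplp1 and 46.2% between Aplp1 and Aplp2. The intron after App exon 7 had no partner in Aplp2, where exon 7 is followed directly by the exon that corresponds to App exon 9. Introns 15 and 16 of App also had no Aplp2 partner by this rule. Intron 16 of App did match intron 15 of Aplp1, which matched intron 16 of Aplp2, so the counts depend on the pair aligned.

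The introns, in contrast, differed widely in length. Among matched introns, 9 of 11 were longer in App than in Aplp1, with a median ratio of 15.7, and 12 of 14 were longer in App than in Aplp2, with a median ratio of 4.36. The first intron was 52804 bases in App, 33544 in Aplp2 and 860 in Aplp1. App spanned 20.7 times the length of Aplp1 and 3.52 times that of Aplp2. Introns made up 98.5% of App, 94.1% of Aplp2 and 77.6% of Aplp1, and 828 of 22206 coding loci (3.73%) spanned at least as much as App.

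**Figure D2:**
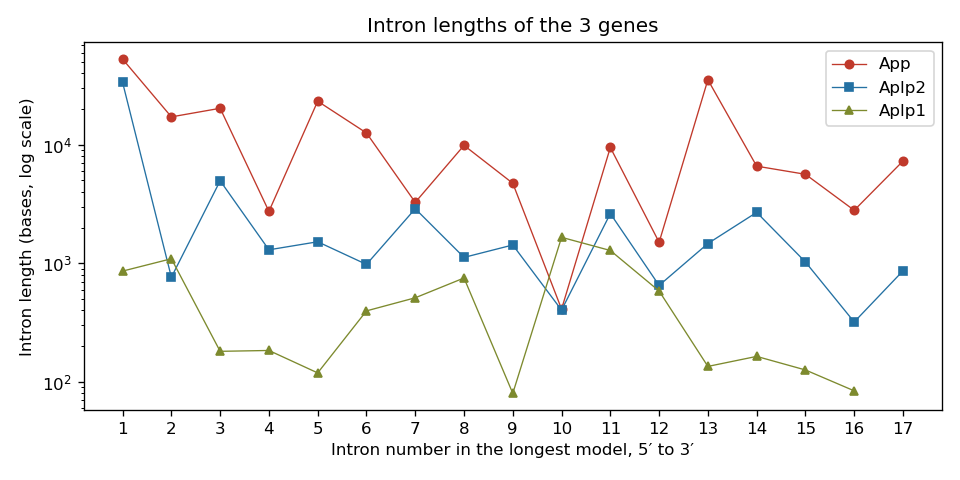
Length of each intron of the longest model, in bases on a log axis, against its number from the 5′ end, for App (circles), Aplp2 (squares) and Aplp1 (triangles). App introns range from 411 to 52804 bases, Aplp2 introns from 320 to 33544 and Aplp1 introns from 80 to 1657. Introns of equal number are not always matched introns.

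An internal exon was called skipped where another coding model of the locus joined its neighbours exactly. By this rule App had 1 skipped exon (exon 15), Aplp2 had 2 (the Kunitz exon and exon 14) and Aplp1 had none, among 8300 in the whole file (4.69% of 176899 internal exons of coding models). Exons 7 and 8 of App were not among them, since no model joined the neighbours of either exactly. App-201 joined exon 6 to exon 9, and App-203 left out exon 8 beside changed ends of the neighbouring exons. Pairs of neighbouring exons left out together by 1 intron, where no intron joined the neighbours of either alone exactly, numbered 763 at 648 loci (2.92% of coding loci). In 206 of these pairs (27%) both exons had lengths that are multiples of 3, as exons 7 and 8 of App do with 168 and 57 bases.

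The loci outside the family whose pair was nearest in length to that of App were Epb4.1l2, a protein of the membrane skeleton, Adam5, a membrane protein of the ADAM family, and Smtn, a protein of smooth muscle. Their pairs had lengths of 168 and 54 bases in Epb4.1l2, 163 and 54 in Adam5, and 165 and 63 in Smtn. All 5 optional exons of the family (App 7, 8 and 15, Aplp2 7 and 14) had lengths that are multiples of 3, so that leaving them out kept the reading frame. App-204 left out exons 14, 16 and 17 as well, which have 222, 101 and 147 bases, and 101 is not a multiple of 3. Over the file a length that is a multiple of 3 was held by 58.7% of skipped exons and 40.3% of internal exons. With exons left out in runs included, as App exons 7 and 8 are, the share was 55.3%.

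The Kunitz spacing of 6 cysteines was then looked for in the translated sequence of 49027 coding models. It was found 31 times in 23 genes, and 30 of the 31 lay within 1 exon. Of 16 other genes listed as Kunitz genes, 14 were in the file under those symbols and 13 of these held it, all but Col7a1. The spacing alone was also met in the cysteine-rich keratin-associated proteins Krtap4-1 and Krtap4-2, in Trim42 and in Egfr, which are not Kunitz proteins. Outside the family the exon that held it was 168 bases in 4 cases and ranged from 165 to 3163 bases.

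Models that leave the domain out were found in few of these genes. Outside the family, 13 occurrences (that of Egfr included) were reached past by at least 2 coding models, and 1 of them, in Spint2, was left out by any. Spint2 inhibits serine proteases such as hepsin, and its exon of 171 bases around the pattern at chr7:30048627-30048779 was held by 2 of 5 coding models. In the family the domain was left out by 1 of 5 App models and 3 of 5 Aplp2 models, the partial models included. Tfpi, the inhibitor of tissue factor, had 3 such domains and 7 coding models, none of which left out a domain it reached past.

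**Figure D3:**
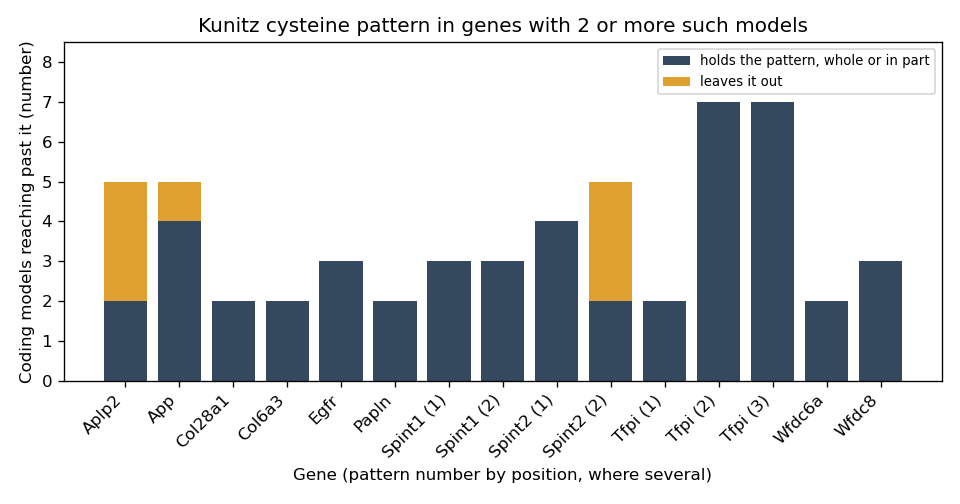
Number of coding models that reach past each Kunitz cysteine pattern, split into those that hold it whole or in part (dark) and those that leave it out (amber), for patterns with at least 2 such models. Amber appears for Aplp2 (3 of 5), App (1 of 5) and the pattern of Spint2 at the higher coordinate (3 of 5), where numbers after a gene count its patterns by rising coordinate.

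Splice sites were scored against the base frequencies at all internal coding exons and given as percentiles among them. The donors of the 5 optional exons all stood low, from percentile 14.5 (App Kunitz exon) to 28.7 (App exon 15), with the Aplp2 Kunitz exon at 19.2, App exon 8 at 16.3 and Aplp2 exon 14 at 20.9. Their median was 19.2 against 62.4 for the other 42 internal exons of the 3 genes, of which 10 stood at or under 28.7. The other 42 include exons 14, 16 and 17 of App, which App-204 left out in a run with exon 15. The donors of these exons stood at 91, 26.9 and 68.2. The acceptors of the 5 optional exons spread more widely. The acceptor of the App Kunitz exon stood at percentile 8.2 and that of the Aplp2 Kunitz exon at 24.4, while that of App exon 8 stood at 81.7 and that of Aplp2 exon 14 at 64.9.

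Over all skipped exons of the file the median donor score was 7.61 bits against 8.18 for internal exons, and the median acceptor score was 8.62 against 9.29. The sites particular to App-203 stood lower still than those of the whole exons. The early donor of its 164-base Kunitz exon was at percentile 2.31, the acceptor of its 6-base exon at 1.09 and the late acceptor of its 84-base exon 9 at 0.638. These scores are descriptions of sequence and not of use.

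**Figure D4:**
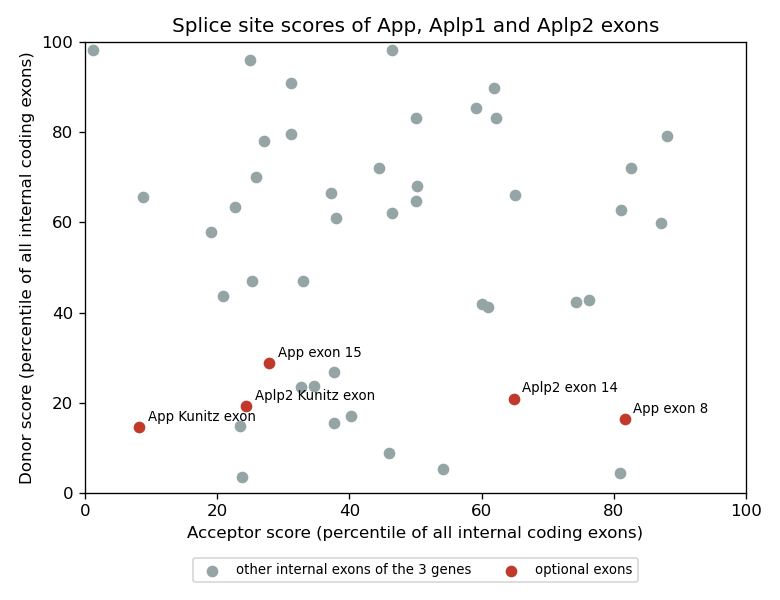
Donor against acceptor score of every numbered internal exon of App, Aplp1 and Aplp2, each as a percentile of all internal coding exons, with the 5 optional exons in red and the other 42 in grey. The red points all lie at or under a donor percentile of 28.7, while their acceptors run from 8.2 to 81.7. App exons 14, 16 and 17, which App-204 left out in a run with exon 15, are in grey.

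The hexamer TGCATG, which proteins of the RBFOX family of splicing regulators bind, was looked for in 150 bases of intron on either side of the 5 optional exons. It occurred 1 time on the transcribed strand, from base 46 of the intron after App exon 8, as printed above, and not on the other strand. Over all skipped exons 8.16% held it in the 150 bases downstream, and over all internal exons 5.97% did. On either side, 13.4% of skipped and 10.7% of all internal exons held it. The Kunitz exon of App held the same letters within the exon, from its base 144, where they overlap the codon of the fifth cysteine. Among 833 internal exons of the same length 39 (4.68%) held it. The Kunitz exon of Aplp2 and its flanks held none. The shorter motif GCATG, which is contained in TGCATG, occurred 4 times in the same flanks, 2 of them after App exon 8, 1 after App exon 15 and 1 before Aplp2 exon 14. It was common, since 28.5% of skipped exons and 26.5% of all internal exons held it on either side. A match says only that the letters are present in that window.

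The start sites were described by the window from 250 bases before to 50 bases after the start of each TSS group. The shared start of the 5 App models had 71% GC and a CpG ratio (observed over expected) of 0.80, that of Aplp1 had 69.7% and 0.77, and that of 4 Aplp2 models had 66.7% and 0.91. The start of Aplp2-206 inside exon 5 had 39.3% GC and a ratio of 0.27. The median of 32157 TSS groups of coding models was 55.7% GC and a ratio of 0.51. The internal start of Aplp2 thus had the lowest values of the 4 family starts. It is the first base of a partial model, and whether transcription starts there was not tested.

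**Figure D5:**
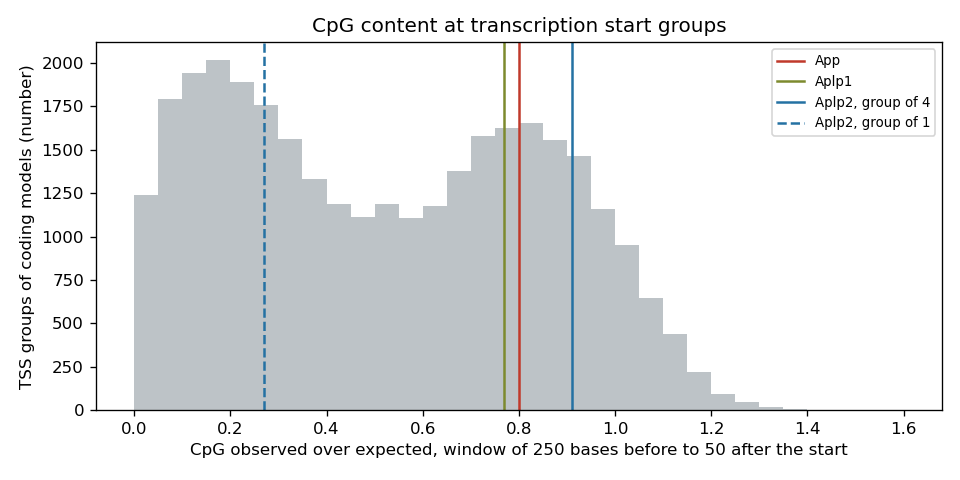
Number of TSS groups of coding models (bars) by the CpG observed over expected ratio in the window from 250 bases before to 50 after the start, with the family's 4 groups as lines. App (0.80), Aplp1 (0.77) and the Aplp2 group of 4 (0.91) lie in the upper hump, and the Aplp2 group of 1 (0.27, dashed) in the lower.

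Reads in bases that some models share cannot be told apart between those models, so the bases and introns particular to each model were counted. A model without a base of its own can still differ from another, as App-202 held 225 bases that App-201 lacks. In App, App-203 had 6 exonic bases of its own (the 6-base exon) and App-205 had 2 (at its 5′ end), while App-201, App-202 and App-204 had none. App-201, App-204 and App-205 each had 1 intron found in no other model, and App-203 had 2. App-202 had neither a base nor an intron of its own. In Aplp2 no model had a base of its own, and only Aplp2-205 had an intron of its own. Between the Kunitz exon and exon 14 of Aplp2 lay 747 spliced bases, and between exons 8 and 15 of App 819, and the Kunitz exon ended 2167 bases before the end of App-202 and 2516 before that of Aplp2-201.

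The identifiers also set which kinds of comparison each gene can enter in the Cufflinks package, which compares splicing within a TSS group, use of TSS groups within a gene, and coding sequences within a gene. App, with 5 models and 5 protein identifiers in 1 TSS group, can enter those of splicing and coding sequence but not that of TSS groups. Aplp2, with 2 TSS groups, one holding 4 models, can enter all 3. Aplp1, with 1 model, can enter none of them.

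Genes that cut, carry or bind App, or that degrade amyloid beta, were compared with the family by their models. Of 30 such genes, all in the file, 23 (76.7%) had more than 1 coding model, against 49.2% of all coding loci, 22 (73.3%) had more than 1 TSS group, against 43.7%, and 12 (40%) had a skipped exon, against 22.4%. Among secretases, Bace1 had 4 coding models and Bace2 had 1. The alpha-secretases Adam10, Adam17 and Adam9 had 4, 3 and 2 coding models. Of the 7 gamma-secretase genes, the presenilin Psen2 had 6 and Aph1b and Ncstn had 3 each, and 2 of the 7 genes had a skipped exon.

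The proteins that bind the tail of App included the richest of these genes in models. Apbb2 had 13 coding models, Dab1 had 11 and Apba2 had 5, with 6, 3 and 2 skipped exons, and 4 of the 9 adaptor genes had any. Among the receptors and carriers, Clu had 7 coding models, Lrp8 had 6 and Lrp1 had 5, with 0, 4 and 1 skipped exons. Of the enzymes that degrade amyloid beta, Ece2 had 8 coding models, Ece1 had 4 and Mme had 2. Among the other Kunitz genes, 14 of 16 symbols were in the file, and Tfpi had 7 coding models, Spint2 had 5 and Col6a3 had 4. The 5 coding models of App or Aplp2 were matched or exceeded at 2402 of the 22206 coding loci (10.8%).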

How the data were processed

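RNA-seq of 12 pools of mouse NAc was made by the authors on poly(A) RNA with an unstranded kit. Tools listed in the submitters' processing notes were CASAVA, Cuffdiff, Cufflinks and TopHat, on the build mm9 (NCBIM37). Their versions: not given in the sources used here. Deposited by the authors was a file that lists 624665 exons, each labelled with its transcript, locus and, where assigned, its TSS group and protein. It has 0 columns of values per sample, so no group was compared, no level or depth could be read, and pools entered no result.

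Transcripts were taken by gene name, and coding ones were those with a protein identifier. Of 87158 identifiers also in GENCODE M1, 85297 (97.9%) had identical exons, and all 22 chromosomes fitted the NCBIM37 sequence. Coding sequences came from GENCODE M1 and all sequences from NCBIM37. The Kunitz pattern was 6 cysteines spaced by 8, 15, 7, 12 and 3 residues. Hydropathy windows started after residue 40. Splice site scores summed log2 odds over 20 intron and 3 exon bases (acceptor) or 3 exon and 6 intron bases (donor). Proteins were aligned with BLOSUM62 and gap scores of -11 and -1, with free end gaps. Named genes outside the family were the 3 of each list with the most coding models and the 3 loci with the exon pair nearest to that of App. Col7a1, Krtap4-1, Krtap4-2, Trim42 and Egfr were named after their values were seen. The members and lists were chosen with earlier results of these data known, and the splice site, hydropathy and CpG descriptions were added after the models were seen. Python 3.11.15, numpy 2.4.6, scipy 1.17.1, biopython 1.88 and matplotlib 3.10.9 were used. On simulated models and sequences 7 kinds of step recovered 1400 of 1400 known answers. Splice site scores, hydropathy, protein alignment and CpG ratios were not among these steps.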

Additional observations from a re-analysis of the deposited data

How the results depend on the processing

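Of 37 alternative values for 21 results, 29 stayed within 1.5 times the count, or within the 95% exact binomial interval of the share. All family models were coding, so alternatives that only changed between coding and all models could not move the family's counts. The interval served only as a rule for calling values the same, since these are complete counts and not samples. It is wide for a share of few models, and Kunitz shares of 60% and 80% in App counted as the same. Counting any intron that spans an exon raised the skipped exons from 1 to 8 in App and from 2 to 13 in Aplp2, since by construction it also counts exons within introns of other models whose ends do not match the neighbouring exons. Including runs of exons left out together, an alternative chosen after seeing the data, gave 6 in App, and over the file 7.56% of skipped exons with TGCATG downstream and 55.3% with a length that is a multiple of 3. With all internal exons the first share was 5.97%, and with all models the second was 50.9%. GCATG gave 4 matches in place of 1. No paired analysis was possible because no value per pool was analysed here. Leaving out pools was not run for the same reason.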
